A study of Equus caballus with 15 samples.

Results

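Autologous conditioned serum (ACS) is serum taken from blood that was incubated in contact with a treated surface. The incubation is meant to enrich cytokine antagonists, the IL-1 receptor antagonist among them. ACS is injected into joints of horses with osteoarthritis. The comparison described here sets macrophages that received ACS together with IL-1ß against macrophages that received IL-1ß alone. It takes 6 of the 15 RNA-seq libraries of the series, 3 on each side, chosen by their labels, and the 11628 of 16932 listed genes that averaged 1 CPM or more over the 15 libraries (a gene's reads scaled to a common library total). The macrophages were grown from blood mononuclear cells of 2 geldings, 3 and 5 years old, over 5 days with human M-CSF at 30 ng/ml. IL-1ß was given at 10 ng/ml to both groups, and in the ACS group the serum made up 25% of the medium during the same 24 h. The serum, prepared with the IRAP II kit, came from 3 other horses (2, 5 and 5 years of age), so it was not autologous to the cells it was put on. Each ACS library therefore stands for 1 serum donor, while the study describes the IL-1ß libraries and the untreated libraries as technical replicates. Their spread, and the p-values that use it, may then reflect technical variation more than variation between cultures. The study's methods give 24 h of further culture after the treatment was washed off, whereas the sample descriptions have the cells collected after the wash. The libraries of the remaining conditions, which are untreated macrophages and IL-1ß with platelet rich plasma (PRP) lysate or with medium of mesenchymal stromal cells (MSC-CM), entered the model to share its estimate of the spread.

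IL-1ß binds its receptor on macrophages and, through MYD88 and IRAK kinases, activates NF-kB and AP-1, which drive genes of cytokines and chemokines. The IL-1 receptor antagonist (IL1RN) occupies that receptor without signaling, and the decoy receptor IL1R2 takes up IL-1ß without signaling. Macrophages also change with the surrounding signals in other ways, for example toward the CCL17 and CCL22 secreting state that IL-4 and IL-13 bring about, or toward a scavenging state with high CD163, the receptor for hemoglobin bound to haptoglobin. Serum itself carries growth factors and platelet products to which macrophages respond. The ATF4 branch of the stress response switches on genes of amino acid synthesis when amino acids are short or unfolded protein builds up in the endoplasmic reticulum.

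The ACS libraries held 36666765 to 47894080 reads counted on genes and the IL-1ß libraries 28920903 to 35975942. IL-1ß replicate 3, the shallowest of the 6, stood apart from the others. It scored -103 on the first principal component of the 15 libraries, where the other IL-1ß libraries scored 24.5 and -6.07 and the ACS libraries 17.8 to 26.6. Its median gene was at 6.15 CPM against 10.5 to 11.2 CPM in the other 5 libraries, and genes of cytosolic ribosomal proteins summed to 71339 CPM in it, against 33775 and 42299 CPM in IL-1ß replicates 1 and 2 and 31251 to 31497 CPM with ACS. The mean Euclidean distance between ACS and IL-1ß libraries over the log2(CPM + 1) of all genes tested was 78.3, with 30.2 among the ACS libraries and 93.3 among the IL-1ß libraries. Without IL-1ß replicate 3 it was 52.2 between the groups, and the remaining IL-1ß libraries lay 44.6 apart. Counts and the fold changes of the main genes are therefore given with and without this library, whose part in the differences was not tested.

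With ACS, 257 genes were called changed, 143 higher and 114 lower, which is 2.21% of the 11628 genes tested (1.23% higher and 0.98% lower). A gene was called at a Benjamini-Hochberg adjusted p-value of at most 0.05 in limma and a fold change of at least 2, on log2(CPM + 1) as everywhere below. Without the fold threshold 401 genes passed, or 3.45%, and 2387 had an unadjusted p-value no higher than 0.05. Without IL-1ß replicate 3 the share that passed with no fold threshold was 2.34%. All 257 called genes had 3 ACS libraries beyond all 3 IL-1ß libraries, as did 26.2% of all genes tested (36.6% without IL-1ß replicate 3). Leaving that library out, 196 genes were called, 1.69% of those tested, of which 93 (0.8%) were higher and 103 (0.886%) lower. Of the 257 genes, 162 were called in both fits, 83 higher and 79 lower, and none changed sign, while 60 higher and 35 lower genes lost the call and 34 gained it. Single libraries moved the count in both directions, to 162, 103 and 103 without ACS replicates 1, 2 and 3 and to 705 and 163 without IL-1ß replicates 1 and 2, and a fit of these 6 libraries alone called 48. Over all genes tested the median was 0.13 on the log2 scale with every library and 0.01 without IL-1ß replicate 3, and RLE size factors brought it to 0.02, so the changes below are read against these medians. With RLE the called genes split into 124 higher and 138 lower, so more genes were lower than higher on that scale. Since these are bulk libraries, fewer cells of a type and less RNA per cell cannot be told apart.

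**Figure D1:**
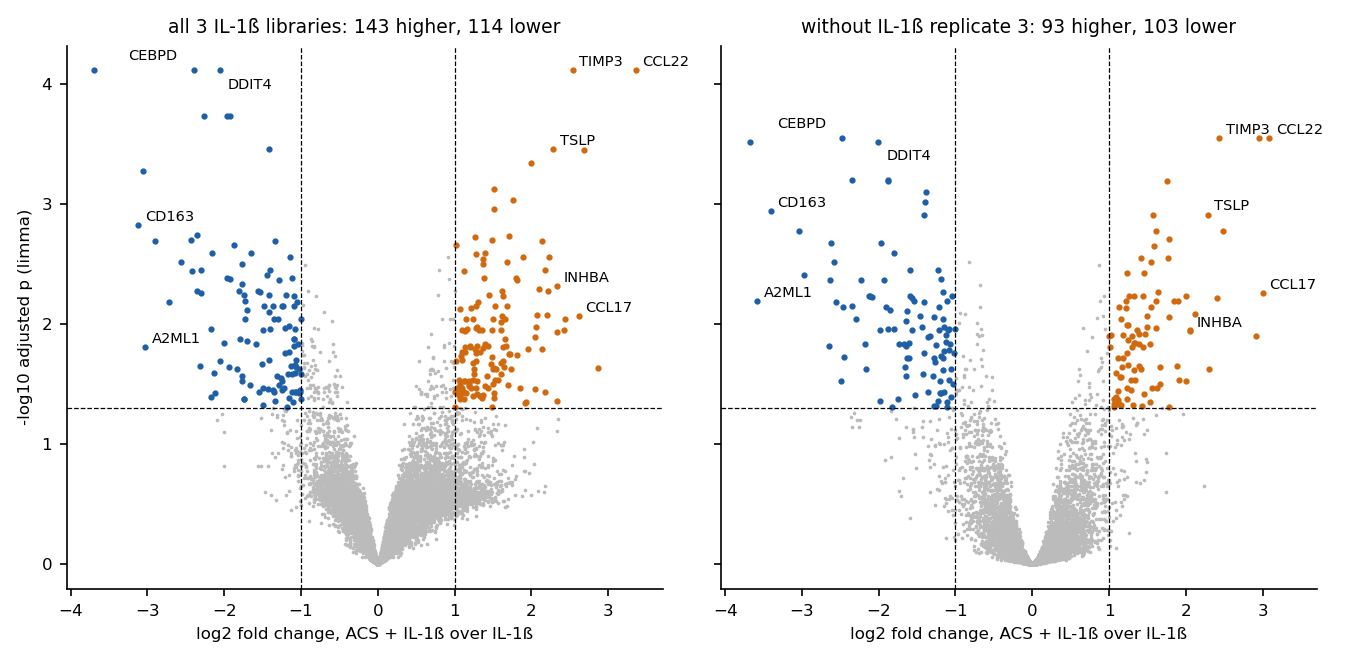
Log2 fold change of ACS + IL-1ß over IL-1ß (horizontal axis) against -log10 of the limma adjusted p-value (vertical axis) for the 11628 genes tested, with all 3 IL-1ß libraries (left) and without IL-1ß replicate 3 (right). Orange points are called higher and blue points lower, dashed lines mark an adjusted p of 0.05 and a 2-fold change, and the 143 higher and 114 lower genes on the left became 93 and 103 on the right.

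CCL22, the gene with the largest rise on the log2(CPM + 1) scale, which understates changes of low genes such as TSLP below, lies in a chemokine locus with 2 further genes that rose. CCL22 (ENSECAG00000040031), which encodes a ligand of CCR4 that attracts regulatory and type 2 helper T cells, was at 836, 781 and 901 CPM with ACS and at 83.2, 114 and 55.5 CPM with IL-1ß alone. Every ACS library was far above every IL-1ß library, and the log2 fold change was 3.36 (SE 0.29, adjusted p = 7.72e-05). The gene of the other CCR4 ligand, CCL17 (ENSECAG00000000054), was at 743, 634 and 449 CPM with ACS and 57.5, 93.9 and 164 CPM with IL-1ß. The groups again did not overlap, and the log2 fold change was 2.62 (SE 0.46, adjusted p = 0.00857). ENSECAG00000031387, which the study's text also calls CX3CL1, was at 33.9, 25.5 and 17.0 CPM with ACS and 3.75, 3.90 and 6.12 CPM with IL-1ß, and the log2 fold change was 2.22 (SE 0.35, adjusted p = 0.00531). In the coordinates of the deposited table (EquCab3.0), CCL22 (chr3:10308740-10313566), this gene (chr3:10321313-10332373) and CCL17 (chr3:10345976-10357681) follow each other with 7747 and 13603 bases between them. CIAPIN1, whose span begins within the last 165 bases of CCL17 and whose product acts in assembly of iron-sulfur clusters, had a log2 fold change of 0.17 and was not called (adjusted p = 0.464). Without IL-1ß replicate 3 the 3 genes kept their calls, at 3.09 for CCL22, 3.00 for CCL17 and 2.40 for ENSECAG00000031387 on the log2 scale. Taking the chemokine list as a whole, 3 of 19 members tested rose and 2 fell, or 3 and 1 without IL-1ß replicate 3. This and the list counts below are to be read against the 1.23% of all genes tested that were higher and the 0.98% that were lower (0.8% and 0.886% without IL-1ß replicate 3). CCL3, a chemokine that attracts monocytes, was the third riser, at 2628, 2375 and 2204 CPM with ACS and 841, 796 and 1158 CPM with IL-1ß (log2 fold change 1.38, adjusted p = 0.00415, and 1.55 with IL-1ß replicate 3 left out). Its span overlaps ENSECAG00000022992, whose values moved alike (log2 fold change 1.21, adjusted p = 0.0152), and reads of the pair may have been shared. CCL14 fell from 19.3, 33.0 and 43.4 CPM with IL-1ß to 7.45, 7.53 and 5.60 CPM with ACS (log2 fold change -2.002, adjusted p = 0.0145, and -1.75 with IL-1ß replicate 3 left out). CCL24, a ligand of the eosinophil receptor CCR3, was at 1.20, 1.11 and 0.752 CPM with ACS and 4.81, 5.74 and 10.7 CPM with IL-1ß (log2 fold change -1.94, adjusted p = 0.023), and its call was lost without IL-1ß replicate 3 (log2 fold change -1.64, adjusted p = 0.0714). Of these chemokine genes, CCL14 and CCL24 also lost the call without ACS replicate 2, ACS replicate 3 or IL-1ß replicate 2, and CCL24 without ACS replicate 1.

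INHBA, TIMP3, TSLP and NR4A3 were among the 12 largest rises, as were CCL22 and CCL17. INHBA, the subunit of activin A, was at 834, 880.2 and 1034 CPM with ACS and 248, 192 and 123 CPM with IL-1ß. The lowest ACS library lay above 3 times the level of the highest IL-1ß library, and the log2 fold change was 2.33 (SE 0.37, adjusted p = 0.00481), or 2.06 without IL-1ß replicate 3 (adjusted p = 0.0115). TIMP3, an inhibitor of matrix metalloproteinases that binds to the matrix, was at 172, 164 and 159 CPM with ACS and 31.6, 27.8 and 23.5 CPM with IL-1ß. Both groups were tight and well apart, and the log2 fold change was 2.54 (SE 0.21, adjusted p = 7.72e-05), or 2.44 without IL-1ß replicate 3 (adjusted p = 0.000283). TSLP, an epithelial and myeloid cytokine that acts on dendritic cells and favors type 2 responses, was at 4.12, 2.92 and 4.78 CPM with ACS, or 151, 111 and 229 reads, and had 0 reads in every IL-1ß library. Against a floor of 3 reads per IL-1ß library it was at least 43.5-fold higher with ACS, a bound that covers counting error only (log2 fold change 2.29, adjusted p = 0.000348, and 2.29 with IL-1ß replicate 3 left out). NR4A3, an early response gene of the orphan nuclear receptors, was at 165, 231 and 274 CPM with ACS and 64.7, 44.5 and 8.23 CPM with IL-1ß. IL-1ß replicate 3 was by far the lowest library here, and the log2 fold change of 2.86 (SE 0.61, adjusted p = 0.0233) became 2.01 without it (adjusted p = 0.0298). NR4A3 lost the call when any 1 of the ACS libraries was left out.

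CD1A1, of the CD1 family that presents lipids on dendritic cells, was at 21.7, 17.6 and 8.87 CPM with ACS and 1.97, 2.57 and 1.45 CPM with IL-1ß (log2 fold change 2.44, adjusted p = 0.00899, and 2.31 with IL-1ß replicate 3 left out). The ACS libraries spread over more than 2-fold but did not reach the IL-1ß libraries. GUCY1B1, a subunit of the guanylate cyclase that nitric oxide activates, was at 90.1, 86.4 and 73.1 CPM with ACS and 28.2, 19.4 and 5.39 CPM with IL-1ß (log2 fold change 2.43, adjusted p = 0.0111), and its log2 fold change fell to 1.78 without IL-1ß replicate 3. CD1A1, GUCY1B1 and ENSECAG00000041947 each lost the call without ACS replicate 2. The 12 largest rises included 4 genes that the table lists by identifier alone, ENSECAG00000036967 on chromosome 25, ENSECAG00000041947 on chromosome 10, ENSECAG00000039383 on chromosome 11 and ENSECAG00000041707 on chromosome 1. ENSECAG00000036967 rose most among them, from 15.4, 16.3 and 28.3 CPM with IL-1ß to 163, 121 and 111 CPM with ACS (log2 fold change 2.69, adjusted p = 0.000359, and 2.96 with IL-1ß replicate 3 left out). It lies within the span of AKNA, which had a log2 fold change of -0.19. The other 3 had log2 fold changes of 2.33 (ENSECAG00000041947), 2.33 (ENSECAG00000039383) and 2.23 (ENSECAG00000041707). ENSECAG00000039383 had an adjusted p of 0.0433 and lost the call in 10 of 16 alternative analyses.

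Of 14 scavenger receptor genes 3 fell, CD163, CD163L1 and STAB1, while 6 had a positive log2 fold change (median -0.18 against 0.13 over all genes). CD163 (ENSECAG00000019111, chr6:35896420-35918134) was at 92.0, 58.6 and 43.2 CPM with ACS and 685, 638 and 365 CPM with IL-1ß. Every ACS library was far below every IL-1ß library, and the log2 fold change was -3.12 (SE 0.39, adjusted p = 0.00149), or -3.40 without IL-1ß replicate 3 (adjusted p = 0.00115). Its neighbor CD163L1 (ENSECAG00000012955, chr6:35823740-35878437), a receptor of the same cysteine-rich family with 17983 bases between the spans, was at 2.78, 2.03 and 1.52 CPM with ACS and 23.9, 22.3 and 19.7 CPM with IL-1ß. The groups were again apart, and the log2 fold change was -2.90 (SE 0.38, adjusted p = 0.00204), or -2.97 without IL-1ß replicate 3 (adjusted p = 0.00393). STAB1, an endocytic receptor of macrophages and sinusoidal endothelium, was at 17.9, 13.1 and 7.20 CPM with ACS and 64.4, 66.5 and 44.7 CPM with IL-1ß (log2 fold change -2.18, adjusted p = 0.0401). Its fold change was as large without IL-1ß replicate 3, at -2.36 on the log2 scale, but the adjusted p rose to 0.0598 there, and the call was also lost without any 1 ACS library or IL-1ß replicate 2. These were the 3 of 14 scavenger receptors called (21.4%, against 2.21% of all genes), 2 without IL-1ß replicate 3, and the remaining 11 were not called in either direction. None of 20 genes of heme and iron handling, the pathway into which CD163 delivers hemoglobin, was called, which at 2.21% over all genes does not set the list apart (median log2 fold change -0.33, against 0.13).

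The largest fall on the log2(CPM + 1) scale was that of ENSECAG00000038794 (chr12:23531793-23697961), from 35.2, 38.6 and 39.1 CPM with IL-1ß to 2.45, 2.16 and 1.40 CPM with ACS. The ACS libraries were all far below the IL-1ß libraries, and the log2 fold change was -3.70 (SE 0.32, adjusted p = 7.72e-05), or -3.67 without IL-1ß replicate 3 (adjusted p = 0.000303). ENSECAG00000017042 (chr12:23505138-23516845), 14948 bases away, fell from 36.9, 44.1 and 42.8 CPM to 5.45, 4.21 and 2.82 CPM (log2 fold change -3.06, adjusted p = 0.000532, and -3.03 with IL-1ß replicate 3 left out). The table gives no symbol for either, and MS4A2, of the membrane-spanning 4A family, is listed 11090 bases from the latter. A2ML1, of the alpha-2-macroglobulin family of protease inhibitors, was at 17.8, 15.8 and 12.4 CPM with ACS and 248, 149.7 and 60.0 CPM with IL-1ß. The IL-1ß libraries spread over 4-fold while the ACS libraries were close together, and the log2 fold change was -3.03 (SE 0.60, adjusted p = 0.0156), or -3.58 without IL-1ß replicate 3 (adjusted p = 0.00647). A2ML1 lost the call without ACS replicate 2, ACS replicate 3 or IL-1ß replicate 2.

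CEBPD (ENSECAG00000039817, chr9:36503384-36504206), a transcription factor of the C/EBP family that IL-1 and glucocorticoids induce, was at 8.07, 8.40 and 8.02 CPM with ACS and 49.7, 50.0 and 42.6 CPM with IL-1ß. The libraries of each group lay close together, and the log2 fold change was -2.40 (SE 0.20, adjusted p = 7.72e-05), or -2.47 without IL-1ß replicate 3 (adjusted p = 0.000283). IGFBP4, which binds insulin-like growth factors, was at 1.75, 0.975 and 0.543 CPM with ACS and 10.2, 13.6 and 13.5 CPM with IL-1ß (log2 fold change -2.71, adjusted p = 0.00656, and -2.65 with IL-1ß replicate 3 left out). RNASE6, an antimicrobial ribonuclease of monocytes, was at 13.4, 7.88 and 10.3 CPM with ACS and 60.5, 70.4 and 66.1 CPM with IL-1ß (log2 fold change -2.56, adjusted p = 0.00307, and -2.55 with IL-1ß replicate 3 left out). In both genes the IL-1ß libraries lie close together, replicate 3 included, and the ACS libraries lie well below them. Among the 12 largest falls were also ENPP6, a choline phosphodiesterase (log2 fold change -2.44), RAB3IL1, an exchange factor for a Rab GTPase (-2.41), and the unnamed ENSECAG00000006663 (-2.36) and ENSECAG00000002438 (-2.36). DNMT3L, a cofactor of DNA methyltransferases, was lower at 0.491, 0.184 and 0.585 CPM against 3.70, 4.55 and 3.25 CPM (log2 fold change -1.77, adjusted p = 0.00466, and -1.86 with IL-1ß replicate 3 left out). Of the 24 largest rises and falls, 7 have a span that overlaps another listed gene (CEBPD, CCL17, TIMP3, ENPP6, ENSECAG00000038794, ENSECAG00000006663 and ENSECAG00000036967). The strand setting of the counting is not given, so reads of such a pair may have been credited to either gene.

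**Figure D2:**
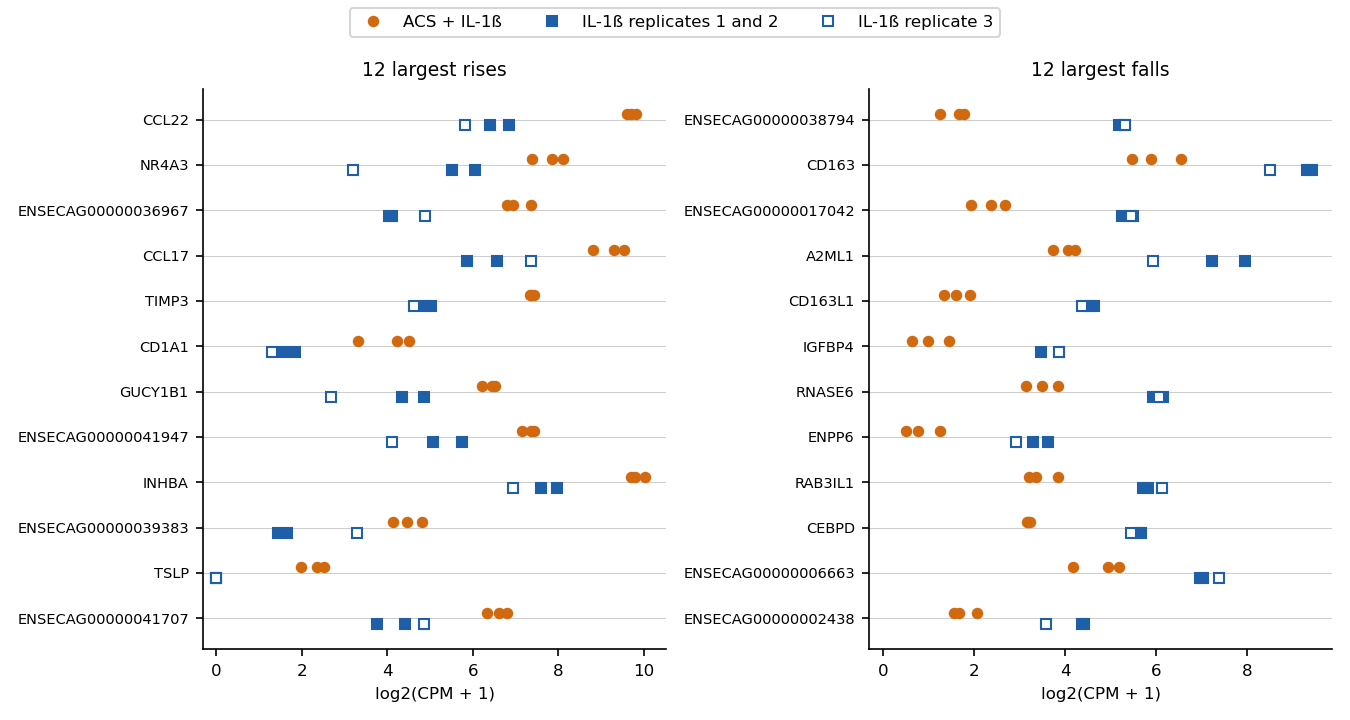
Level of the 12 largest rises (left) and 12 largest falls (right) on a log2(CPM + 1) axis, 1 gene per row. Orange circles are the 3 ACS + IL-1ß libraries, filled blue squares IL-1ß replicates 1 and 2, and open squares IL-1ß replicate 3, which is the lowest of the IL-1ß libraries for NR4A3, GUCY1B1 and A2ML1 and the highest for CCL17 and ENSECAG00000039383, among others. In each row the groups do not overlap, which was a condition for choosing these genes.

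The list with the most called members was that of the unfolded protein response and the ATF4 program. Of its 56 members tested, 13 fell and 1 rose, or 25.0% called against 2.21% of all genes, and 42 had a negative log2 fold change. Its median was -0.57 against 0.13 over all genes, and without IL-1ß replicate 3 it was -0.66 against 0.01, with 11 members called lower and 0 higher. The members that fell fall into those of the ATF4 branch and those of the endoplasmic reticulum. CHAC1, which degrades glutathione, was at 4.01, 3.90 and 1.32 CPM with ACS and 16.9, 24.3 and 10.4 CPM with IL-1ß (log2 fold change -2.17, adjusted p = 0.011, and -2.47 with IL-1ß replicate 3 left out). DDIT4, an inhibitor of mTORC1 that stress induces, was at 15.4, 11.2 and 10.8 CPM with ACS and 49.0, 56.2 and 59.0 CPM with IL-1ß (log2 fold change -2.06, adjusted p = 7.72e-05, and -2.01 with IL-1ß replicate 3 left out). TRIB3, a pseudokinase that feeds back on ATF4, was at 19.5, 15.9 and 16.4 CPM with ACS and 58.1, 74.4 and 73.1 CPM with IL-1ß (log2 fold change -1.93, adjusted p = 0.000186, and -1.88 with IL-1ß replicate 3 left out). In DDIT4 and TRIB3 the ACS libraries sat at the level of the untreated libraries, which were at 11.8, 10.6 and 11.3 CPM for DDIT4 and 16.2, 14.3 and 19.1 CPM for TRIB3.

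GPT2, an alanine aminotransferase, had a log2 fold change of -1.88 (adjusted p = 0.0022), and PHGDH and PSAT1, the first enzymes of serine synthesis, had -1.76 (adjusted p = 0.00317) and -1.50 (adjusted p = 0.0338). With IL-1ß replicate 3 left out these were -1.93, -1.62 and -1.97. PSAT1 was at 17.64, 14.01 and 12.97 CPM with ACS, above all untreated libraries at 10.2, 9.45 and 8.75 CPM, a difference that was not called. ASNS, asparagine synthetase, was at 25.6, 20.8 and 17.6 CPM with ACS, 70.4, 82.5 and 39.5 CPM with IL-1ß and 19.6, 19.1 and 21.9 CPM in untreated macrophages (log2 fold change -1.49, adjusted p = 0.0111, and -1.80 with IL-1ß replicate 3 left out). NUPR1, a stress-induced chromatin protein, also fell (-1.70, adjusted p = 0.0137). It lay below the untreated level, at 7.04, 7.37 and 9.15 CPM with ACS against 27.7, 13.4 and 21.8 CPM, where the difference was not called (adjusted p = 0.159). ATF4 itself had -1.02 (adjusted p = 0.0365) and lost its call in 10 of 16 alternatives, among them RLE and TMM factors, each ACS library left out, and IL-1ß replicate 3 left out, in which it was highest, at 1223 CPM. On the side of the endoplasmic reticulum, HSPA5, its main chaperone, was at 834, 735 and 689 CPM with ACS and 1884, 2039.5 and 1062 CPM with IL-1ß (log2 fold change -1.09, adjusted p = 0.0152, and -1.38 with IL-1ß replicate 3 left out). HERPUD1, which takes part in degradation of misfolded protein, had -1.19 (adjusted p = 0.00575), and SDF2L1 (-1.32) and CRELD2 (-1.17) lost their calls without IL-1ß replicate 3. VLDLR, a lipoprotein receptor that ATF4 can induce, was the 1 member that rose (1.30, adjusted p = 0.0384), and it too was not called without that library. CHAC1, PSAT1, ASNS, NUPR1 and HSPA5 were called without IL-1ß replicate 3 but lost the call without 1 or more of the other libraries, PSAT1 without any 1 ACS library, whereas DDIT4, TRIB3, GPT2, PHGDH and HERPUD1 kept it whichever library was left out. Between ACS and untreated macrophages 0 of the 14 were called, as were only 0.37% of all genes, so this count does not show a return to the untreated level.

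**Figure D3:**
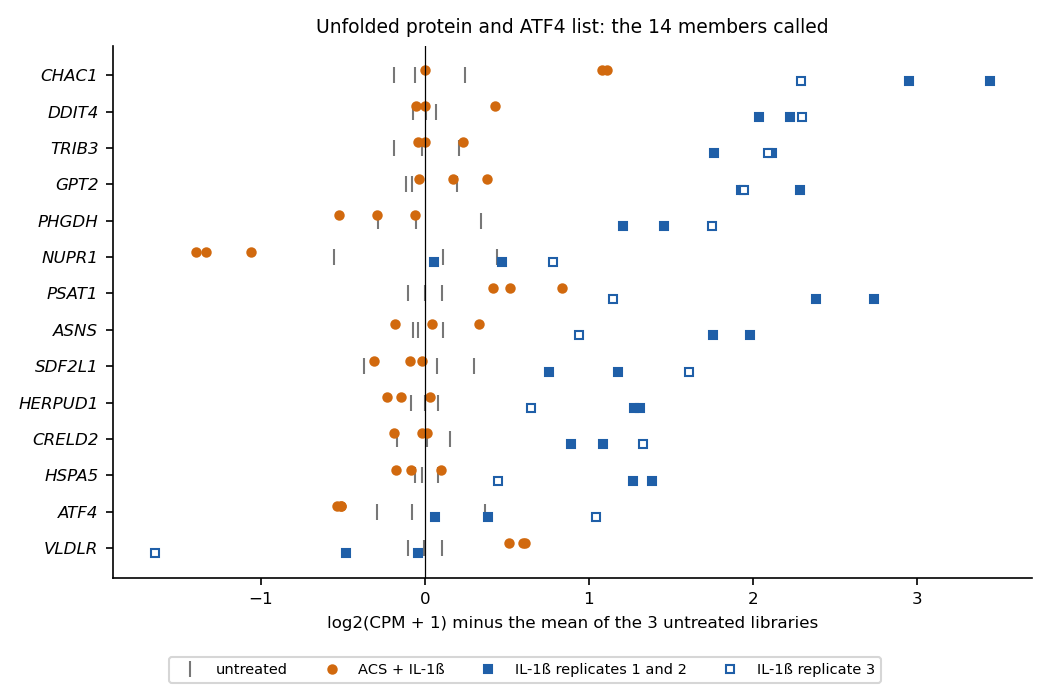
The 14 called members of the unfolded protein and ATF4 list, each library plotted as log2(CPM + 1) minus the mean of the 3 untreated libraries (horizontal axis), so that 0 is the untreated level. Orange circles are ACS + IL-1ß, blue squares IL-1ß (open for replicate 3) and grey ticks untreated macrophages, and for DDIT4, TRIB3, GPT2 and ASNS the ACS libraries lie near 0 while the IL-1ß libraries lie to the right.

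Cytokine genes moved in both directions. Of 26 inflammatory cytokines tested, 5 rose and 1 fell (23.1% called, against 2.21% of all genes), and without IL-1ß replicate 3 also 5 rose, with CSF2 in place of IFNG, but none fell. TNF was at 76.8, 80.1 and 81.5 CPM with ACS and 39.4, 27.7 and 23.9 CPM with IL-1ß. Every ACS library was above every IL-1ß library, and the log2 fold change was 1.39 (SE 0.27, adjusted p = 0.0147), or 1.24 without IL-1ß replicate 3 (adjusted p = 0.0419). CSF1, the growth factor of macrophages, was at 3177, 3743 and 3445 CPM with ACS and 1731, 1467 and 565 CPM with IL-1ß (log2 fold change 1.61, adjusted p = 0.0259, and 1.11 with IL-1ß replicate 3 left out). IL13 was at 45.3, 50.5 and 46.0 CPM with ACS and 17.5, 19.9 and 18.5 CPM with IL-1ß (log2 fold change 1.30, adjusted p = 0.00658, and 1.30 with IL-1ß replicate 3 left out). IFNG, the main activator of macrophages from T and NK cells, was at 22.0, 16.7 and 22.3 CPM with ACS and 10.4, 9.63 and 7.71 CPM with IL-1ß (log2 fold change 1.06, adjusted p = 0.0291), and its call was lost without IL-1ß replicate 3 (log2 fold change 0.94, adjusted p = 0.0779) and in 9 of 16 alternatives in all, among them RLE and TMM factors and each ACS library left out. IL6 was at 17.5, 10.4 and 6.01 CPM with ACS and 59.8, 46.7 and 40.4 CPM with IL-1ß. The ACS libraries spread over nearly 3-fold and stayed below the IL-1ß libraries (log2 fold change -2.12, adjusted p = 0.0376), but IL6 was not called without IL-1ß replicate 3 (log2 fold change -2.24, adjusted p = 0.0628) nor in 6 of the other 15 alternatives. TNF lost its call without ACS replicate 2, ACS replicate 3 or IL-1ß replicate 2, and CSF1 without any 1 ACS library, while IL13 kept it whichever library was left out. IL10, CXCL10, CXCL8, CCL5 and IL4, which the study also measured as proteins, were not called as RNA. IL10 was at 7.94, 8.45 and 5.49 CPM with ACS and 8.56, 9.58 and 12.1 CPM with IL-1ß (log2 fold change -0.42, adjusted p = 0.26, and -0.30 with IL-1ß replicate 3 left out), CXCL10 at 34.2, 31.4 and 30.5 CPM and 67.4, 48.2 and 32.7 CPM (log2 fold change -0.55, adjusted p = 0.284, and -0.81 with IL-1ß replicate 3 left out), and CXCL8 at 1748, 1233 and 1926 CPM and 958, 686 and 854 CPM (log2 fold change 0.96, adjusted p = 0.201, and 0.99 with IL-1ß replicate 3 left out). CCL5 had a log2 fold change of 0.42 and IL4 of 0.48, with adjusted p-values of 0.351 and 0.231. With IL-1ß replicate 3 left out these were 0.73 and 0.52, again without a call.

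In the IL-1 system itself 1 of 21 genes tested was called (4.76%, against 2.21% of all genes), also without IL-1ß replicate 3. IL1R2, the decoy receptor, was at 135, 97.9 and 85.0 CPM with ACS and 43.7, 37.4 and 31.9 CPM with IL-1ß. Every ACS library was above every IL-1ß library, and the log2 fold change was 1.45 (SE 0.24, adjusted p = 0.00575), or 1.34 without IL-1ß replicate 3 (adjusted p = 0.0144). IL1RN, the receptor antagonist that ACS is meant to supply as a protein, was at 588, 455 and 459.5 CPM with ACS and 421, 460.5 and 447 CPM with IL-1ß, which overlap (log2 fold change 0.17, adjusted p = 0.544, and 0.17 with IL-1ß replicate 3 left out). IL1B was at 34.1, 16.6 and 19.0 CPM with ACS and 32.7, 21.0 and 19.5 CPM with IL-1ß, also overlapping (log2 fold change -0.10, adjusted p = 0.927, and -0.24 with IL-1ß replicate 3 left out), and the sign of its difference changed with the libraries used. IL1A (0.80), IL1R1 (0.03) and IL1RAP (-0.17), the second ligand and the chains of the signaling receptor, had adjusted p-values of 0.345, 0.972 and 0.779. These rest on IL-1ß replicate 3, where all 3 genes were lowest among the IL-1ß libraries, and without it they were 0.11, -0.57 and -0.55. IL18 was lower in each ACS library, at 4.94, 3.71 and 3.97 CPM against 8.81, 12.9 and 17.6 CPM, and missed the threshold (log2 fold change -1.40, adjusted p = 0.076, and -1.17 with IL-1ß replicate 3 left out). IL36G was higher, at 18.0, 18.1 and 29.3 CPM against 8.95, 7.97 and 6.43 CPM, and missed it too (log2 fold change 1.35, adjusted p = 0.119, and 1.24 with IL-1ß replicate 3 left out). The adaptor MYD88 (0.49, adjusted p = 0.287) and the kinases IRAK1 (0.14, 0.444), IRAK2 (0.86, 0.218) and IRAK4 (0.35, 0.427) were not called. Without IL-1ß replicate 3 they were 0.08, 0.11, 0.45 and 0.0067.

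Targets of TNF and NF-kB leaned upward. Of 79 tested, 10 rose and 3 fell (16.5% called), 62 had a positive log2 fold change, and the median was 0.46 against 0.13 over all genes. Without IL-1ß replicate 3, 6 rose and 1 fell, and the median was 0.38 against 0.01. Beside TNF and NR4A3, the risers with a call in both fits were DUSP5, a phosphatase of ERK (1.10), the activation marker CD69 (1.22), GCH1, the first enzyme of tetrahydrobiopterin synthesis (1.28), and HBEGF, a ligand of the EGF receptor (1.29). MAFF (1.13), EGR2 (1.35), CD83 (1.10) and ICAM1 (1.01) were called with all libraries and not without IL-1ß replicate 3, and so were KLF2 (-1.74) and IL6 among the fallers. The third faller, CEBPD, was called in both fits. DUSP5 and GCH1 lost the call without ACS replicate 2 or 3, and DUSP5 without IL-1ß replicate 2. DUSP5 fell below the 2-fold threshold with RLE or TMM factors, edgeR and DESeq2 (log2 fold change 0.96 to 0.99), as did CD83 and ICAM1, and GCH1 did with estimated library weights (0.91). In the overlapping list of RAS-MAPK feedback and AP-1 targets, 5 of 35 rose, 0 fell and 32 were positive (median 0.56), with 4 risers without IL-1ß replicate 3. EPHA2, a receptor of ephrins, led it beside INHBA, at 56.4, 57.3 and 49.0 CPM with ACS and 14.95, 15.1 and 15.8 CPM with IL-1ß (log2 fold change 1.76, adjusted p = 0.00092, and 1.78 with IL-1ß replicate 3 left out). IL-2 and STAT5 targets had 3 of 44 called higher, CSF1, IRF8 and CD83, and 0 lower. Without IL-1ß replicate 3 the called members were CSF1, IRF8 and CSF2.

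Of 26 angiogenic and vascular factors, 6 rose and 1 fell (26.9% called, median 0.77 against 0.13), and without IL-1ß replicate 3 there were 4 and 1. ESM1, an endothelial proteoglycan, was at 9.16, 10.7 and 6.26 CPM with ACS and 1.89, 1.41 and 1.42 CPM with IL-1ß (log2 fold change 1.89, adjusted p = 0.00279, and 1.85 with IL-1ß replicate 3 left out). STC1, a secreted glycoprotein that hypoxia induces, was at 4.94, 3.66 and 3.47 CPM with ACS and 0.195, 0.480 and 0.657 CPM with IL-1ß (log2 fold change 1.80, adjusted p = 0.00415, and 1.91 with IL-1ß replicate 3 left out). CCBE1 (1.96), VEGFC (1.81), FLT1 (1.74) and ECE1 (1.61), which act in lymphatic growth, as a VEGF receptor and in endothelin processing, were the other risers. VEGFC and FLT1 missed the threshold without IL-1ß replicate 3, at adjusted p-values of 0.0501 and 0.0663. PECAM1, an adhesion molecule of endothelium and leukocytes, fell from 500.4, 455 and 244 CPM to 128, 106 and 96.3 CPM (log2 fold change -1.79, adjusted p = 0.0134, and -2.12 with IL-1ß replicate 3 left out). In the matrix list 2 of 32 rose, TIMP3 and FN1, and 0 fell, in either fit. FN1, fibronectin, was abundant in both groups, at 4369.5, 7534 and 6722 CPM with ACS and 2308, 1649 and 681 CPM with IL-1ß (log2 fold change 2.14, adjusted p = 0.0162, and 1.63 with IL-1ß replicate 3 left out). In coagulation and complement, F3, tissue factor, which starts clotting, rose from 30.9, 22.4 and 23.7 CPM to 138, 113 and 90.5 CPM (log2 fold change 2.10, adjusted p = 0.00514, and 2.05 with IL-1ß replicate 3 left out). TFPI2, a serine protease inhibitor, also rose (1.66), whereas CFP, the properdin that stabilizes the alternative complement convertase, fell with A2ML1 (-1.35). Among TGF-beta targets and pathway genes INHBA and SMAD7 rose and TGFBI and ID3 fell, and INHBA was the 1 of these 4 with a call in both fits. Of the genes in this paragraph called in both fits, FN1, TFPI2 and PECAM1 lost the call without ACS replicate 2 or 3, PECAM1 also without IL-1ß replicate 2, CCBE1 without ACS replicate 1 or 2 and CFP without ACS replicate 3.

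Of 38 genes of the type II interferon response and antigen presentation, 4 rose and 0 fell (10.5% called, against 2.21% of all genes), or 2 and 0 without IL-1ß replicate 3. CD40, the receptor through which T cells activate macrophages, was at 218, 205 and 171 CPM with ACS and 79.4, 67.2 and 59.2 CPM with IL-1ß (log2 fold change 1.52, adjusted p = 0.0011, and 1.42 with IL-1ß replicate 3 left out). IRF8, a transcription factor of dendritic cells and macrophages, was at 610.5, 706 and 786 CPM with ACS and 308, 289 and 220.2 CPM with IL-1ß (log2 fold change 1.37, adjusted p = 0.00317, and 1.22 with IL-1ß replicate 3 left out). CD83 and ICAM1 were the other 2. Of 45 type I interferon response genes 1 was called (2.22%, about the share over all genes), IRF7, the factor that amplifies interferon alpha, which fell from 95.0, 99.1 and 159 CPM to 48.1, 39.8 and 52.4 CPM (log2 fold change -1.28, adjusted p = 0.00434, and -1.05 with IL-1ß replicate 3 left out), and 30 of the 45 had a negative log2 fold change (median -0.36). Receptors that sense microbes had 2 of 25 lower and 0 higher (3 and 1 without IL-1ß replicate 3), NLRP12 (-2.27) and TLR7 (-1.08), the latter without a call once IL-1ß replicate 3 was left out. NLRP12, an NLR protein of myeloid cells, was at 0.491, 0.0527 and 0.230 CPM with ACS and 4.98, 5.68 and 4.39 CPM with IL-1ß. Among SLAM family and macrophage surface receptors 3 of 29 fell, and these were SLAMF9 (-2.31), the medium chain fatty acid receptor GPR84 (-1.73) and SLAMF8 (-1.21), each called in both fits, and GPR84 and SLAMF8 lost the call without ACS replicate 3. Alternative activation genes had 4 of 20 higher, CCL22, CCL17, CD1A1 and IL1R2, and 1 lower, CCL24, or 4 and 0 without IL-1ß replicate 3. The study lists FOXP1 as upregulated with ACS, as well as genes of the PPAR, STAT6 and STAT3 pathways. FOXP1 (0.32, adjusted p = 0.422), STAT6 (0.31, 0.388), STAT3 (0.64, 0.278) and PPARG (-0.10, 0.578) were not called here. Without IL-1ß replicate 3 they were 0.0035, 0.046, 0.13 and -0.15.

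The remaining lists are given with the share called, against 2.21% of all genes. LXR and PPAR targets had 1 of 31 higher and 1 lower (6.45%), and macrophage transcription factors 3 of 37 higher and 3 lower (16.2%). Of genes of cholesterol and fatty acid synthesis (35), oxidative phosphorylation (68), antioxidant and oxidase genes (35), E2F targets and the G2M checkpoint (85) and prostaglandin and leukotriene enzymes (17), 0 were called in either fit. With 2.21% called over all genes, this does not set any of these lists apart. The mTORC1 and nutrient list had 3 of 41 lower (7.32%), IGFBP4, DDIT4 and EIF4EBP1, an inhibitor of translation initiation (-1.25). The glucocorticoid response list had 4 of 20 lower, CD163, CEBPD, DDIT4 and FCER1A, and 1 higher, SLA (25% called). SLA lost its call in 10 of 16 alternatives and FCER1A in 7 of 16, for both genes among them each ACS library left out. In hypoxia and glycolysis (6.82% called) STC1 rose while HK3, a hexokinase of myeloid cells (-1.41), and DDIT4 fell. With IL-1ß replicate 3 left out the counts higher and lower were 2 and 3 for hypoxia and glycolysis, 0 and 4 for the glucocorticoid list, with MERTK in place of FCER1A, 1 and 2 for LXR and PPAR targets, 2 and 1 for the transcription factors, 1 and 4 for the SLAM and surface receptors, and 0 and 3, as before, for the mTORC1 list. All 63 ribosomal protein genes tested had a negative log2 fold change and none was called. Their median of -0.57 shrank to -0.25 without IL-1ß replicate 3, the library with the highest ribosomal protein sum.

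**Figure D4:**
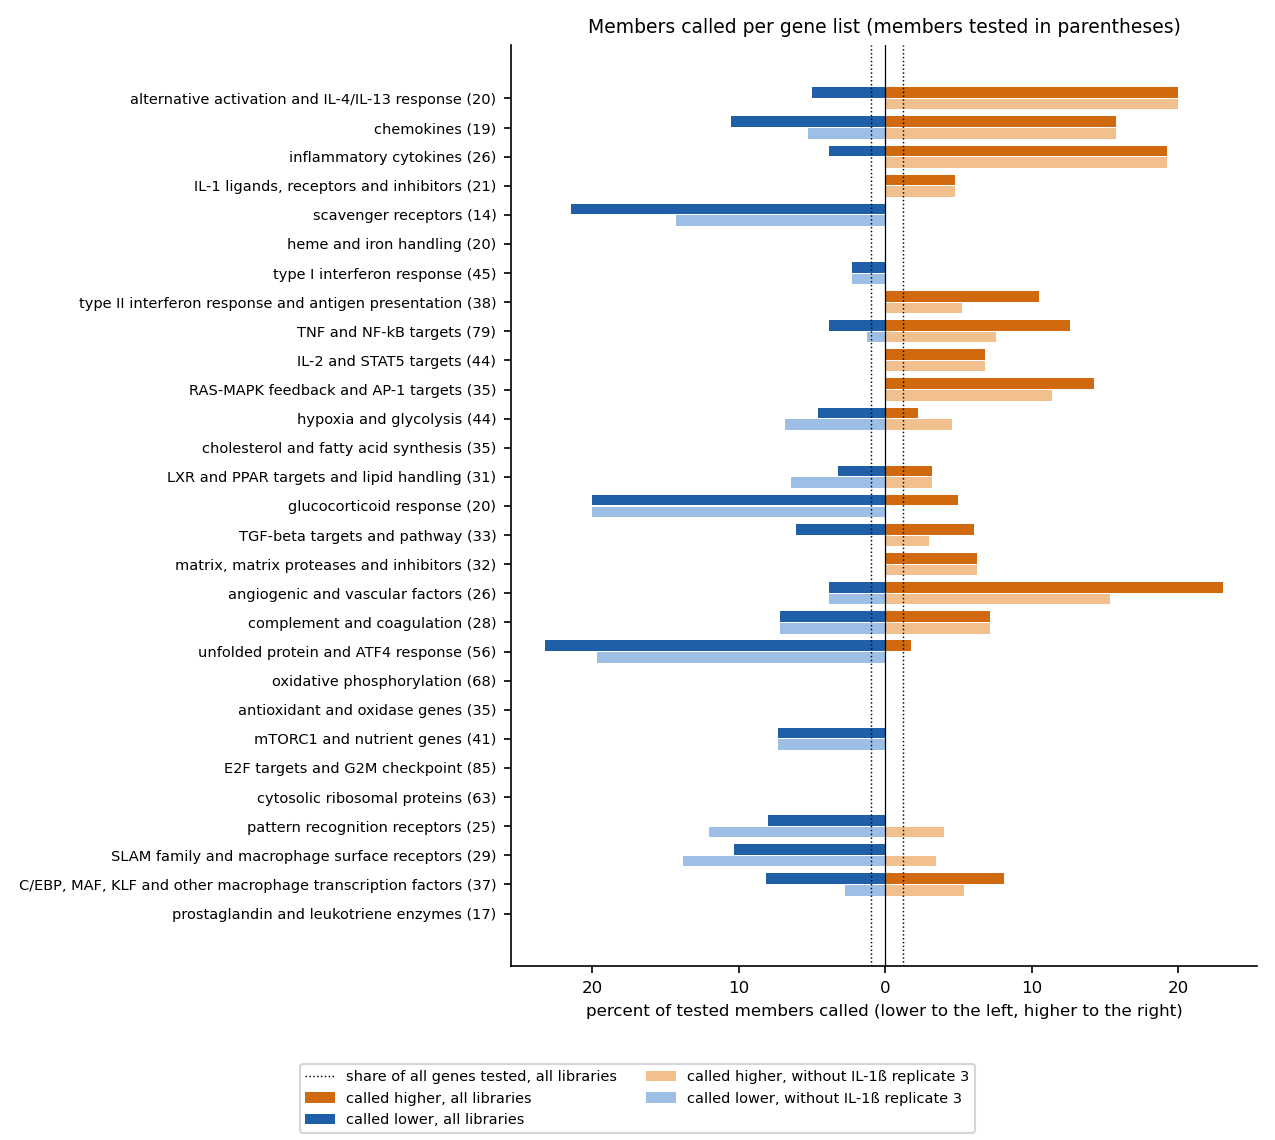
Percent of the tested members of each gene list (number tested in parentheses) that were called higher (to the right) or lower (to the left) with ACS. Dark bars use all 3 IL-1ß libraries, pale bars leave out IL-1ß replicate 3, and dotted lines mark the share of all genes tested, 1.23% higher and 0.98% lower. Among the dark bars the unfolded protein and ATF4 list reaches furthest to the left and the angiogenic list furthest to the right, and both are shorter in the pale bars.

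Markers of cell types were read beside these results. Of the macrophage markers, CD68 was at 1602 to 1683 CPM with ACS and 1476 to 1742 CPM with IL-1ß, MRC1 at 1612 to 2591 and 1152 to 3394 CPM, and CSF1R at 248 to 351 and 227 to 469.7 CPM. CD14 was at 4.32 CPM or less in each of the 6 libraries. The 16 macrophage markers tested summed to 13535 to 16769 CPM with ACS and 20644 to 21487 CPM with IL-1ß, and 2 of the 16 fell, CD163 and AIF1 (-1.10, lost without ACS replicate 2, ACS replicate 3 or IL-1ß replicate 2). CTSB was at 5901 to 7255 CPM with ACS and 8468 to 9720 CPM with IL-1ß, and CTSD at 2861 to 3236 and 3691 to 6950 CPM. These proteases made up most of the sums, and neither was called. In all, 13 of the 16 had a negative log2 fold change, with a median of -0.50 against 0.13 over all genes. T cell markers summed to 1396 to 1731 CPM with ACS and 1803 to 2772 CPM with IL-1ß, the highest being in replicate 3, and 0 of 14 were called. B cell markers summed to 155 to 264 and 189 to 252 CPM, and NK cell markers to 493 to 765 and 414 to 857 CPM, with 0 called. Dendritic cell markers summed to 1064 to 1369 CPM with ACS and 733 to 825 CPM with IL-1ß, with 2 of 9 called higher, CD1A1 and CD83. Neutrophil markers summed to 602 to 832 and 356 to 427 CPM, nearly all from CSF3R and MMP25, while ELANE, MPO, LTF and S100A12 were below 4 CPM everywhere. Platelet markers summed to 229.9 to 339 CPM with ACS and 60.0 to 205 CPM with IL-1ß. ITGB3, which macrophages also express, made up most of that sum with ACS, and PPBP, GP1BA and GP9 were at 16.1 CPM or less. Erythroid markers were at 2.95 to 6.64 CPM in sum, and collagen genes COL1A1 and COL1A2 at 1.61 CPM or less. The part of T, NK and dendritic cells in the cytokine and chemokine results was not tested.

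Levels with ACS were set beside those of the other conditions for the same genes. All of these comparisons use the same ACS libraries. The study prepared ACS, PRP lysate and MSC-CM from 3 donor horses, and the comparisons between products were not matched by donor. Against untreated macrophages 43 genes were called, 0.37% of those tested (0.146% higher and 0.224% lower with ACS), and they included 6 of the 12 largest rises and 7 of the 12 largest falls. CCL22 was at 103, 132 and 213 CPM in untreated macrophages, below all ACS libraries (log2 fold change of ACS over untreated 2.55, adjusted p = 0.00215), and INHBA (1.99, 0.0332) and TIMP3 (1.22, 0.0263) were above the untreated level as well. CD163 was at 302, 281 and 147 CPM in untreated macrophages and missed the threshold there (-1.90, adjusted p = 0.0583). CEBPD was at 10.3, 8.33 and 8.78 CPM in untreated macrophages and differed from ACS by -0.14 on the log2 scale (adjusted p = 0.915). A2ML1 was at 37.9, 28.4 and 16.7 CPM, with a difference of -0.75 (adjusted p = 0.889). Against MSC-CM 143 genes were called, 1.23% (0.593% higher and 0.636% lower with ACS), which included 8 of the 12 rises and 10 of the 12 falls. Against PRP lysate 11 genes were called, 0.0946%, all higher with ACS. PRP lysate replicate 1 stood apart from the other PRP lysate libraries, at -51.7 on the first principal component against 20.8 and 23.8, and its part in this low count was not tested. CD163 was 1 of them, at 7.34, 13.3 and 13.4 CPM with PRP lysate (log2 fold change of ACS over PRP lysate 2.39, adjusted p = 0.0347), and 0 of the 12 rises was. A gene that missed the threshold between these products is not shown to be at the same level.

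**Figure D5:**
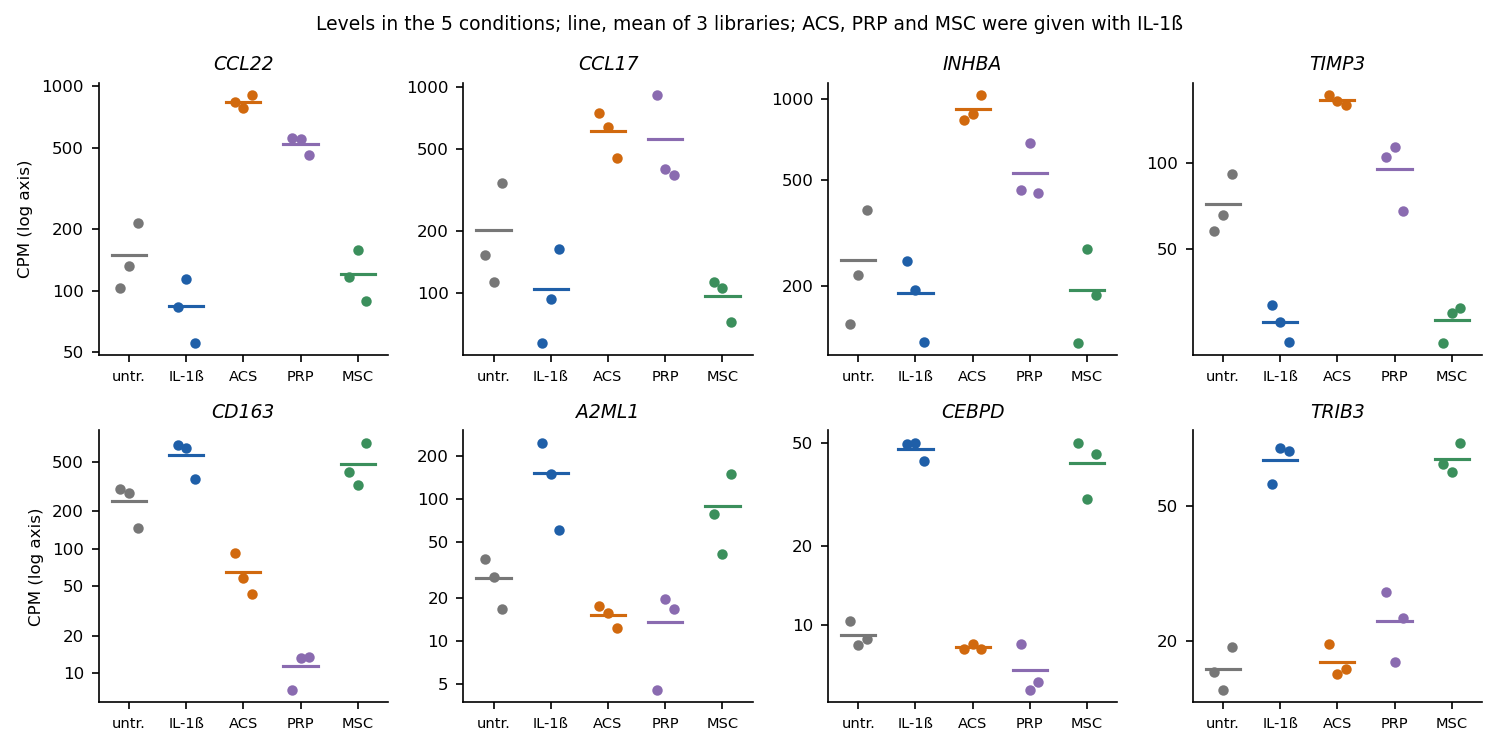
CPM on a log axis of 8 genes in the 5 conditions, with 1 point per library and a line at the mean of 3. ACS, PRP lysate and MSC-CM were given with IL-1ß. CCL22, INHBA and TIMP3 are highest with ACS, CD163 is lower with ACS than with IL-1ß and lowest with PRP lysate, and CEBPD and TRIB3 with ACS lie at the untreated level.

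The ACS libraries, each with serum of another donor, lay close together. Over the 8634 genes that averaged 10 CPM or more, the median range over the ACS libraries was 0.23 on the log2 scale, against 0.80 over the IL-1ß libraries and a median difference of 0.23 between IL-1ß replicates 1 and 2. Between pairs of ACS libraries the median difference was 0.112, 0.129 and 0.173. A range of at least 1, or 2-fold, was found for 57 genes with ACS (0.66%) and for 3383 with IL-1ß (39.2%), of which 125 between replicates 1 and 2. With 1 library a serum donor, no test of donors is possible. The study does not say which horse gave the macrophages of each library. Donors of serum and of cells therefore cannot be told apart here. The 5 genes with the widest range with ACS were SLC11A1, ENSECAG00000001923, SLC6A12, ENSECAG00000007258 and FBXO32. SLC11A1, a metal transporter of phagosomes, was at 27.8, 16.4 and 7.08 CPM, lowest in ACS replicate 3. FBXO32, a ubiquitin ligase subunit, was at 25.7, 43.0 and 76.5 CPM, and SLC6A12, a betaine transporter, at 15.3, 12.5 and 42.2 CPM. None of the 5 was called between ACS and IL-1ß. Among the named falls the range over the ACS libraries was 1.40 for IL6, 1.20 for STAB1 and 1.07 for CD163 on the log2 scale, and in all 3 genes the first library was highest and the third lowest.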

How the data were processed

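RNA of equine monocyte-derived macrophages was enriched for polyadenylated transcripts, made into TruSeq libraries and sequenced with paired reads, and all samples had a RIN over 9. The authors trimmed reads at a Phred score of 20, removed adapters with cutadapt, mapped them onto EquCab3.0 using STAR 2.7.3, then counted genes with HTSeq on Ensembl annotation, all within Partek Flow. The deposited values are CPM, a gene's reads scaled to the reads counted in its library. The strand setting is not given in the sources used here. The deposited values list 16932 genes, 2361 of them by identifier alone, and the columns sum to 982495 to 991421 CPM. All 15 columns were matched to samples by their headers. Whole reads were recovered from the step of each library, where 99.5% of values were whole within 0.05 reads, and 1 read was worth 0.0209 to 0.0352 CPM. 

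Genes averaging 1 CPM or more entered limma 3.58.1 (R 4.3.3), which was run with an intensity trend on log2(CPM + 1), which shrinks fold changes of low genes. All 15 libraries entered 1 model of 5 conditions without pairing, and ACS + IL-1ß was contrasted with IL-1ß. Benjamini-Hochberg adjustment was over 11628 genes, and genes were called at an adjusted p of at most 0.05 and a 2-fold change. SE is the standard error of the log2 fold change from that model. Alternatives were edgeR 4.0.16 and DESeq2 1.42.0 on recovered reads, RLE and TMM factors, the pseudocount 0.1, all listed genes, a minimum of 10 reads per library, calls without a fold threshold, estimated library weights, the 6 libraries alone, and each of the 6 libraries left out. On simulated data limma called 150 of 200 changed genes among 11623, 95.5% of those changed 4-fold or more and 34.3% of those changed 2-fold, and 0 unchanged ones. edgeR called 159 and 2 unchanged ones, and DESeq2 160 and 2. The simulated counts were drawn from each gene's mean over the 15 libraries, with no library set apart like IL-1ß replicate 3. They therefore give no error rate for the real libraries.

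The comparison and the gene lists, written from general knowledge, were chosen with earlier results of these data known. Named genes are the 12 largest rises and 12 largest falls called with and without IL-1ß replicate 3 with non-overlapping groups, genes that the study names for ACS or measured as proteins, up to 4 called members of each list with the largest change, genes of the IL-1 list, and the 5 genes with the widest range over the ACS libraries. Other called list members were added after their values were seen. Lists are described by counts and medians, without a test. Promoter and protein sequences were not used here. Figures were drawn with matplotlib 3.10.9 in Python 3.11.15.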

Additional observations from a re-analysis of the deposited data

How the results depend on the processing

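The count of 257 called genes stayed between 207 and 266 with RLE or TMM factors, a pseudocount of 0.1, all listed genes, a minimum of 10 reads per library and edgeR, and moved by over 1.5 times with 4 other choices. No fold threshold gave 401 genes, of which 195 were lower. A fit of the 6 libraries alone gave 48 (20 higher, 28 lower), DESeq2 574 (275 and 299), and estimated library weights 549 (329 and 220). The weights did not converge and reached 44.2 for IL-1ß replicate 2 against 0.0307 for replicate 3, so that count rests nearly on 1 IL-1ß library. Leaving out 1 of the 6 libraries gave 103 to 705 genes, 47 to 517 higher and 51 to 188 lower, the most without IL-1ß replicate 1 and the fewest without ACS replicate 2 or 3. With IL-1ß replicate 3 left out, 206 genes were called with RLE factors and 194 with edgeR, 2 analyses chosen after seeing the data. Of the 24 largest rises and falls, 16 kept the call in every alternative run for them and 18 in every fit that left out a library. A call without IL-1ß replicate 3 was a condition for choosing these 24 genes, so none could lose the call in that fit. In the 6 libraries alone 8 lost it, and 0 changed sign. Of all 90 called genes that were named, 58 lost the call in at least 1 alternative. No called gene named here changed sign in any alternative.

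Differences of 9 uncalled genes changed sign in some alternative. IL1R1 (0.03) became -0.074 with RLE, -0.056 with TMM, -0.23 with edgeR, -0.24 with DESeq2 and -0.30 with library weights, and ran from -0.57 to 0.42 when a library was left out. IL18R1 became -0.097 with library weights. IL18BP became -0.0084 with edgeR and -0.030 with DESeq2, and ran from -0.0110 to 0.45 over the left-out libraries. IL1RL1 became -0.042 with edgeR, -0.049 with DESeq2 and -0.33 with library weights, with -0.33 to 0.39 over the left-out libraries. ENSECAG00000007258 became 0.13 with library weights, with -0.76 to 0.10 over the left-out libraries. For the others only leaving out a library changed the sign, with -0.40 to 0.13 for IL1B, -0.55 to 0.076 for IL1RAP, -0.57 to 0.46 for IRAK3 and -0.10 to 0.84 for SLC6A12. The cause of these shifts was not tested.

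No paired analysis was possible because the labels of the ACS samples give names in place of replicate numbers, so the ACS numbers used here follow the order of deposit and pair nothing. In the shallowest IL-1ß library 1 read is worth 0.0346 CPM, so genes near 1 CPM are read least firmly, and the model rests on 3 libraries a group.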

Other observations

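Some genes were called when IL-1ß replicate 3 was left out and not with all libraries, 34 in number, and those among the gene lists, chosen after their values were seen, are given here. CSF2, the cytokine GM-CSF, had a log2 fold change of 0.89 with all libraries and 1.11 without IL-1ß replicate 3 (limma adjusted p = 0.0464). CSF3R, the receptor of G-CSF (0.93 and 1.03), NLRP1, an inflammasome sensor (0.98 and 1.15), and ANGPTL4, a lipase inhibitor (0.85 and 1.16), were the others that were higher with ACS. Lower with ACS were MERTK, a receptor for uptake of dying cells (-0.95 and -1.13), ABCG1, a cholesterol exporter (-1.01 and -1.41), PFKFB3, a regulator of glycolysis (-0.96 and -1.16), SLC7A5, an amino acid transporter (-0.65 and -1.15), TLR1 (-0.95 and -1.18) and TLR8 (-0.93 and -1.28).

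TMEM176B and IL4I1, named after their values were seen, were among further genes that fell in both analyses. TMEM176B, a membrane protein of dendritic cells and macrophages, was at 25.7, 27.6 and 23.5 CPM with ACS and 80.6, 115 and 117 CPM with IL-1ß (log2 fold change -1.97, limma adjusted p = 0.000186). The neighboring TMEM176A, whose span overlaps it, had -0.98. IL4I1, a secreted amino acid oxidase, was at 44.5, 40.4 and 57.4 CPM with ACS and 102, 103 and 196 CPM with IL-1ß (-1.42, limma adjusted p = 0.02). TMEM176B kept its call in every alternative, whereas IL4I1 lost it without ACS replicate 1 or 2 and in the fit of the 6 libraries alone.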
